A study of Rattus norvegicus with 21 samples.

Results

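Phenylephrine (PE) raised 81 genes in both control arms of this study of neonatal rat ventricular myocytes (NRVMs), heart muscle cells cultured from newborn rats, and their levels were followed here in cells with lowered or added Klf2. The members were chosen by measured values, out of 30560 Ensembl gene IDs in each of 2 raw count tables. Levels were taken as CPM, counts scaled to the same library total, and averaged over each group. A member had 10 CPM or more on average in both PE-treated control groups, and its mean plus 1 with PE was at least 2 times its mean plus 1 without PE in both controls. Of 8776 IDs that met the CPM minimum, 110 reached the fold in siNeg and 145 in Ad-GFP. The 83 that reached it in both lost 2 IDs that the rule leaves out.

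PE is an agonist of the α1-adrenergic receptor, which signals through Gq, phospholipase C, calcium and protein kinase C. In cultured cardiomyocytes it drives hypertrophic growth and is known for re-activating genes of the fetal heart. KLF2 is a zinc finger transcription factor of the Krüppel-like family, best known in endothelial cells, where shear stress induces it.

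The study asked whether a lack of KLF2 worsens, and added KLF2 lessens, the hypertrophic state that PE gives. In the knockdown table, NRVMs received a small interfering RNA against Klf2 (siKlf2) or a negative control (siNeg) for 12 h and were then kept with or without PE for 36 h, with 2 libraries in each of 4 groups. In the overexpression table, NRVMs were kept with or without PE for 12 h and then received an adenovirus carrying Klf2 (Ad-Klf2) or a green fluorescent protein virus (Ad-GFP) for 24 h, with 3 libraries in each of 4 groups. Groups with PE carry "-PE" in their name. PE was used at 100 µM. The labels list that treatment for every sample, so the groups with and without PE were told apart by the sample titles. The small interfering RNA therefore preceded PE, whereas the virus followed it. Animal age beyond neonatal, the number of animals and whether replicates are separate cell preparations are not given in the sources used here, so p-values measure only the spread between libraries, which may be technical.

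The IDs are not paired with gene symbols in the files, and 0 of them matched the reference table. The members are therefore described by their levels, and their names and functions were not analysed here. For the same reason the level of Klf2, the markers of heart muscle and other cell types, pathway lists, promoters and the CUT&Tag peaks were not checked against the members. In these bulk libraries, fewer cells of a type and less RNA per cell cannot be told apart.

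Knockdown libraries held 181101876 to 224082309 counts and overexpression libraries 32693762 to 76138723. The 3 Ad-GFP libraries without PE stood apart. They had 539 to 776 genes at 1 to 5 counts, and the remaining overexpression libraries had 1728 to 2022. The median coefficient of variation of the members between libraries was 11.9% in Ad-GFP, against 5.49% to 7.15% in the other overexpression groups and 2.15% to 3.36% in the knockdown groups. All 81 members passed the filter on low counts in both tables, and the lowest count of any member in any library was 8. Even values made up 59.8% to 66.6% of the counts of 1 to 20 in the knockdown libraries and 72.1% to 82.2% in the overexpression libraries, so many fragments may have been counted more than once.

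The size of the PE response in the controls chose the members and is given as a description. The ratio of means that the rule used ran from 2.01 to 8.47 in siNeg, with a median of 2.72, and from 2.03 to 14.8 in Ad-GFP, with a median of 3.04. It was at least 4 for 12 members in siNeg and for 18 in Ad-GFP. The smaller of the 2 ratios was 2.01, 2.03 and 2.05 for the 3 members just inside the rule, and 2.00, 1.99 and 1.98 for the 3 genes just outside it. Between 1.8 and 2 there were 37 genes outside, and between 2 and 2.2 there were 18 members, so genes lay close on both sides of the threshold. The smaller of the PE means was 10.1 and 10.5 CPM for the 2 members nearest the CPM minimum, and 9.78 and 8.79 CPM for the 2 genes nearest below it. All 81 members were called higher with PE in siNeg and in Ad-GFP, where 24.8% and 18.3% of all tested genes were called higher and 24.3% and 16.3% lower. Called here and below means a Benjamini-Hochberg adjusted p under 0.05 in edgeR's quasi-likelihood test, adjusted over all genes tested in the contrast. Shares of all tested genes, here and below, are not matched to the members for level.

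Levels are given from here on as CPM with library totals scaled by TMM factors, normalized separately in each table. The median level over the members was 22.5 CPM in siNeg and 69.6 CPM in siNeg-PE. In siKlf2 it was 43.7 CPM without PE and 109 CPM with PE. In the overexpression table the median was 25.3 CPM in Ad-GFP, 86.6 CPM in Ad-GFP-PE, 31.5 CPM in Ad-Klf2 and 48.9 CPM in Ad-Klf2-PE. The middle of the list thus lay highest in siKlf2-PE within the knockdown table, and in Ad-GFP-PE within the overexpression table. Members differed widely in level, from 11.5 to 7796 CPM in siNeg-PE and from 0.50 to 2986 CPM in Ad-Klf2-PE. The number of members at 1000 CPM or more was 2 in siNeg, 8 in siNeg-PE, 5 in siKlf2 and 10 in siKlf2-PE. It was 2 in Ad-GFP, 8 in Ad-GFP-PE, 3 in Ad-Klf2 and 5 in Ad-Klf2-PE. Libraries of a group looked alike across most members. The largest coefficient of variation of a single member was 59.8% in Ad-GFP and 57.3% in Ad-Klf2-PE. The Ad-Klf2-PE libraries held members far above and far below their Ad-GFP level.

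**Figure D1:**
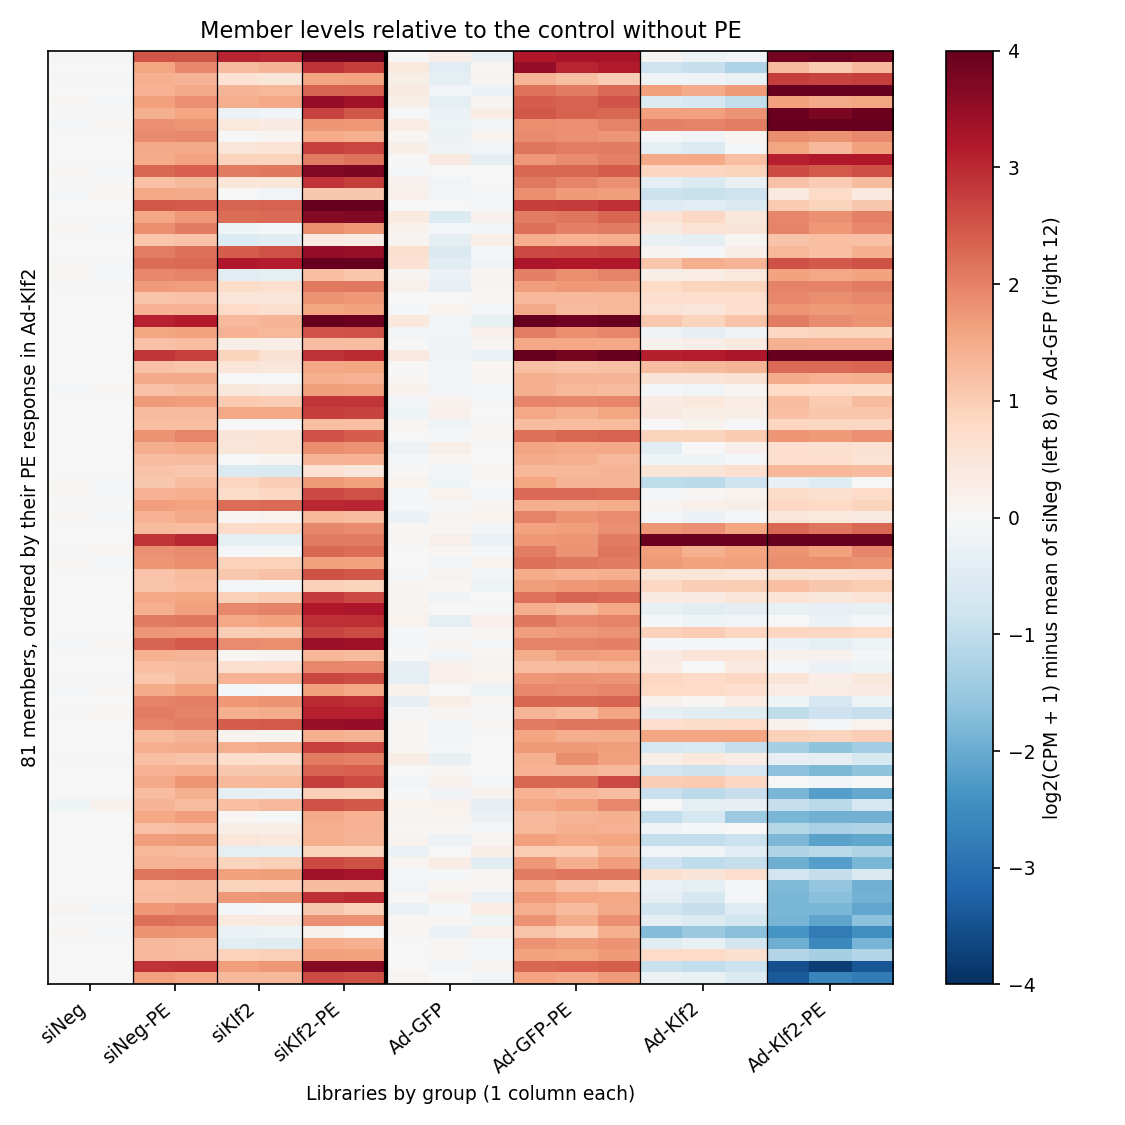
Each row is 1 of the 81 members and each column 1 of the 20 libraries, in 8 groups. Colour gives log2(CPM + 1), TMM-scaled, minus the mean of siNeg for the knockdown libraries on the left and of Ad-GFP for the overexpression libraries on the right, cut at 4 in either direction. Rows are ordered by the PE response in Ad-Klf2. The siKlf2-PE columns are red in nearly every row, whereas the Ad-Klf2-PE columns run from red at the top to blue at the bottom.

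The counts of all members together, as a share of the library, were 0.945% ± 0.0037 in siNeg and 3.50% ± 0.027 in siNeg-PE (SD, n = 2 each). In siKlf2 the share was 2.18% ± 0.018 without PE and 5.72% ± 0.116 with PE (SD, n = 2 each). It was 1.28% ± 0.025 in Ad-GFP and 4.58% ± 0.044 in Ad-GFP-PE (SD, n = 3 each). In Ad-Klf2 it was 1.55% ± 0.049 without PE and 1.56% ± 0.046 with PE (SD, n = 3 each). The 2 libraries of siKlf2-PE were above all other knockdown libraries, and the ranges of Ad-Klf2 and Ad-Klf2-PE overlapped. A few members weigh heavily in this sum. Without the 3 members of highest mean CPM the share was 0.551%, 1.59%, 1.03% and 2.45% in siNeg, siNeg-PE, siKlf2 and siKlf2-PE. In Ad-GFP, Ad-GFP-PE, Ad-Klf2 and Ad-Klf2-PE it was then 0.524%, 1.66%, 0.730% and 1.14%, so the remaining 78 members together took a larger share with PE in Ad-Klf2 as well.

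**Figure D2:**
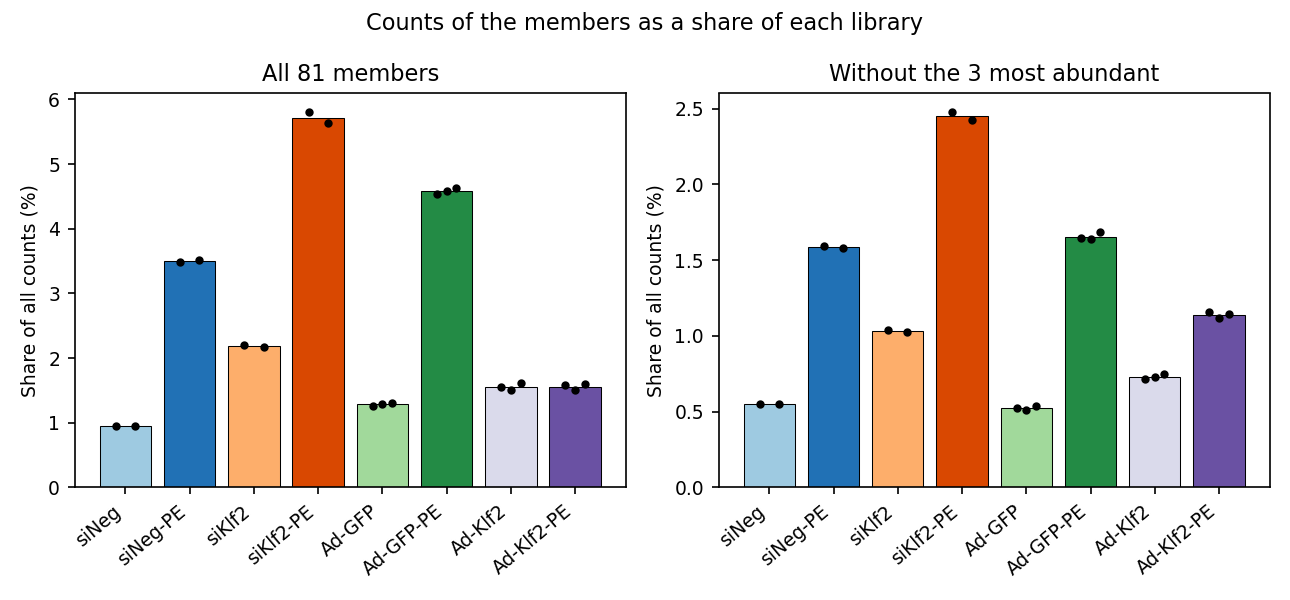
Bars give the mean share of all counts (%) that the members took in each of the 8 groups, and points give single libraries, with all 81 members on the left and without the 3 of highest mean CPM on the right. On the left Ad-Klf2 and Ad-Klf2-PE lie at 1.55% and 1.56%, and on the right at 0.730% and 1.14%.

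PE was compared within siKlf2 cells to see whether the members still responded after knockdown. No library of this comparison was used to choose the members. All 81 were called higher with PE and 0 lower, against 24.4% higher and 23.7% lower of all tested genes. edgeR also gave 0 lower at an unadjusted p under 0.05, and DESeq2 gave 0 lower. A 1.5-fold change or more was seen in 79 members, against 5.88% of all tested genes higher and 7.85% lower at that fold. The median log2 fold change of the members was 1.32, from 0.34 to 2.88, and that of all tested genes was -0.02. In siNeg, where the members were chosen for a large response, it was 1.59. Each of the 81 PE-induced genes therefore went up again with PE in siKlf2, from a starting level that was mostly higher.

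PE was compared in the same way within Ad-Klf2 cells, also without any library that chose the members. Here the list divided. PE raised 46 members and lowered 30, and 5 were not called, against 31.6% higher and 29.6% lower of all tested genes. At a 1.5-fold change or more, 40 of all 81 members were higher and 23 lower, against 21.7% and 18.2% of all tested genes. The median log2 fold change was 0.58, from -3.79 to 4.51, against -0.01 for all tested genes and 1.83 for the members in Ad-GFP. The higher members were 56.8% of the list and the lower members 37%, both above the shares of all tested genes. Members had to reach 10 CPM in both PE-treated controls, whereas tested genes had only to pass the filter on low counts. The shares are thus not matched for level, and whether they differ was not tested. In a fit without the Ad-GFP libraries that stood apart, 46 members were higher and 31 lower. With members chosen by the siNeg fold alone, which leaves the Ad-GFP level without PE out of the choice, 59 of 108 were higher and 40 lower.

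**Figure D3:**
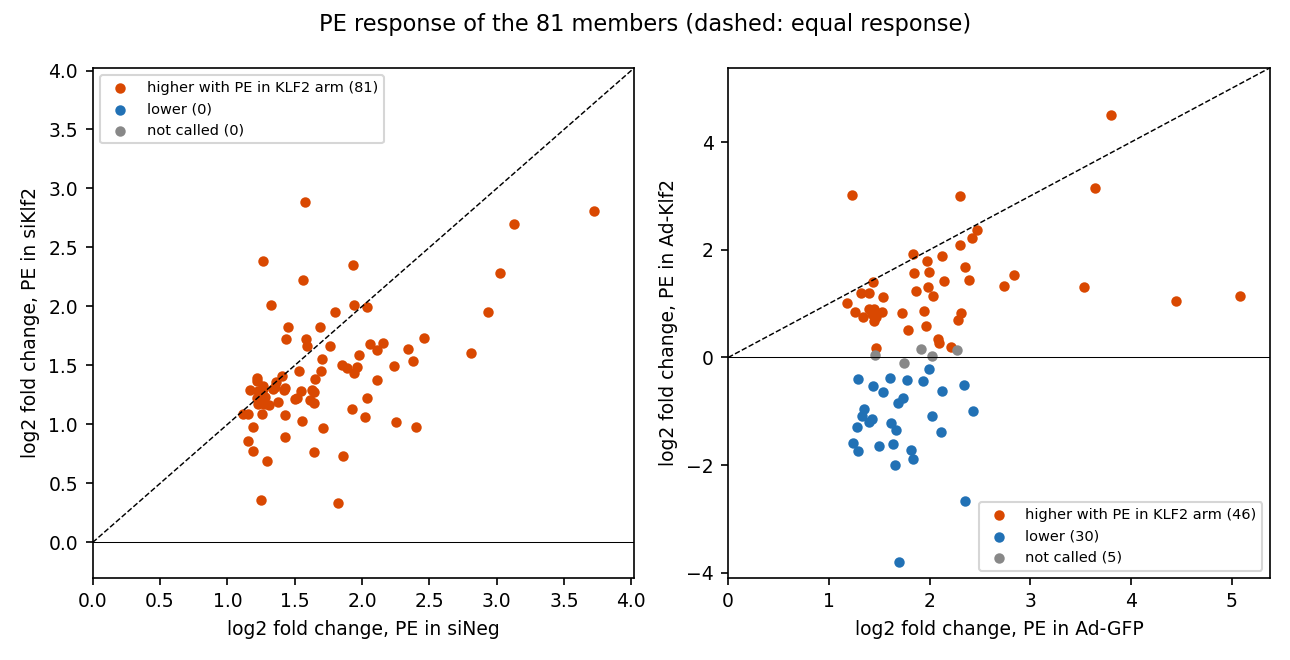
Each point is 1 member. The x axes give its log2 fold change with PE in siNeg (left) and Ad-GFP (right), and the y axes that in siKlf2 (left) and Ad-Klf2 (right), coloured by the call on the y axis, with a dashed line at equal response. All 81 points lie above 0 on the left, whereas 46 are called higher, 30 lower and 5 not called on the right.

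The 46 members raised and the 30 lowered by PE in Ad-Klf2 had control responses over overlapping ranges. Their medians were 1.64 and 1.48 on the log2 scale in siNeg, 1.98 and 1.66 in Ad-GFP, and 1.42 and 1.30 in siKlf2. In Ad-Klf2 without PE the first set had a median log2 difference of 0.33 from Ad-GFP, and the second set of -0.32. The split and this difference both use the Ad-Klf2 libraries without PE. Among all tested genes raised by PE in Ad-Klf2, 40.4% were higher and 10.5% lower in Ad-Klf2 than in Ad-GFP without PE. Among those lowered by PE, 11% were higher and 28.5% lower. Across the members, the PE response in Ad-GFP and in Ad-Klf2 had a Spearman correlation of 0.36 (n = 81), against 0.17 over all 16153 tested genes. The PE responses in siNeg and siKlf2 correlated at 0.43 (n = 81), against 0.65 over 18173 tested genes. The responses in siKlf2 and Ad-Klf2, which come from different tables, correlated at 0.15 (n = 81), and at 0.16 over 15944 genes. Members of a table share its libraries and their scaling, the members' range was narrowed by the choice, and these values are descriptions.

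Members raised and members lowered by PE in Ad-Klf2 were found at every level of expression. PE raised 31.6% and lowered 29.6% of all tested genes in Ad-Klf2. Finding both kinds at each level is therefore not read as a trait of the members. Shares of all genes by level are not given here, and differences between levels were not tested. Of 11 members with a mean of 500 CPM or more over all libraries, 6 rose and 4 fell with PE in Ad-Klf2. Of 31 members at 50 to 500 CPM, 16 rose and 12 fell, and of 39 members under 50 CPM, 24 rose and 14 fell.

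Knockdown was then compared with its control, first without PE. Here siNeg helped choose the members, and a choice for a low siNeg level favours a higher level in siKlf2. Of the 81 members, 60 were higher in siKlf2 than in siNeg, 8 lower and 13 not called, against 27.2% higher and 26.8% lower of all tested genes. At a 1.5-fold change or more, 46 of all 81 members were higher and 0 lower, against 5.83% and 11.5% of all tested genes. The median log2 difference was 0.80, from -0.57 to 3.34, against -0.02 for all tested genes. Scaled by library totals alone, 56 members were higher and 21 lower, and the median of all tested genes moved to -0.22 and that of the members to 0.60. At 42 of the 81 members, siKlf2 without PE had come at least to the midpoint, on the log2 scale, between siNeg and siNeg-PE, and at 11 it had reached the siNeg-PE level. By library totals these counts were 35 and 10. Shares of all genes at these positions are not given here and siNeg helped choose the members, so the counts are descriptions. PE still raised those 11 in siKlf2, by a median of 1.22 on the log2 scale.

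With PE, the choice favours a high siNeg-PE level and so a lower level in siKlf2-PE. Even so, 55 members were higher in siKlf2-PE than in siNeg-PE, 19 lower and 7 not called, against 26.1% higher and 28.2% lower of all tested genes. At a 1.5-fold change or more, 42 of all 81 members were higher and 6 lower, against 6.52% and 11.4% of all tested genes. The median log2 difference was 0.62, from -1.72 to 2.14, against -0.04 for all tested genes, and by library totals it was 0.36 against -0.30. Library totals alone gave 48 members higher and 26 lower. Of the members higher in siKlf2 without PE, 51 were also higher with PE, which is 85% of 60 and 92.7% of 55. Over all tested genes these shares were 75.7% and 78.7%, so such an overlap was common to the knockdown as a whole. The comparisons with and without PE share no library. By level, the members higher with PE were 9 of 11 at 500 CPM or more, 23 of 31 at 50 to 500 CPM and 23 of 39 under 50 CPM. Whether these shares differ was not tested, and shares of all genes by level are not given here.

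Added Klf2 was compared with Ad-GFP without PE, where the choice favours a low Ad-GFP level and the Ad-GFP libraries are those that stood apart. Of the 81 members, 38 were higher in Ad-Klf2, 21 lower and 22 not called, against 20% higher and 15.1% lower of all tested genes. At a 1.5-fold change or more, 27 of all 81 members were higher and 14 lower, against 10.7% and 5.06% of all tested genes. The median log2 difference was 0.16, from -2.11 to 4.24, against 0.00 for all tested genes. In 5 members Ad-Klf2 without PE lay at or above the Ad-GFP-PE level. The share of all genes at this position is not given here, so this count is a description.

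With PE, most members were lower in Ad-Klf2-PE than in Ad-GFP-PE, whose high level helped choose them. There 61 were lower, 13 higher and 7 not called, against 32.1% lower and 33.6% higher of all tested genes. At a 1.5-fold change or more, 53 of all 81 members were lower and 8 higher, against 20.3% and 25.7% of all tested genes. The median log2 difference was -1.11, from -5.93 to 2.49, against -0.03 for all tested genes. In 28 members the level in Ad-Klf2-PE was at or below that in Ad-GFP without PE, and by library totals in 30. The share of all genes at this position is not given here, so these counts are not read as a trait of the members. The 21 members lower in Ad-Klf2 without PE were all lower with PE, where 75.3% of all members were lower. Of all tested genes lower without PE, 69.8% were lower with PE. Of the 38 members higher without PE, 22, a share of 57.9%, were lower with PE and 11, a share of 28.9%, higher, against 10.8% and 76.5% of all tested genes higher without PE. A fit without the Ad-GFP libraries gave 64 lower and 14 higher with PE. Members chosen by the siNeg fold alone gave 78 lower and 19 higher of 108.

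A lower level than in Ad-GFP-PE was also found in members that PE raised in Ad-Klf2. Of those 46, 26 were lower than in Ad-GFP-PE, 13 higher and 7 not called. Among all tested genes raised by PE in Ad-Klf2, 4.36% were lower than in Ad-GFP-PE, 84.3% higher and 11.4% not called. The PE response in Ad-Klf2 and the difference from Ad-GFP-PE both use the Ad-Klf2-PE libraries, and a high Ad-GFP-PE level chose the members. The gap between the 46 members and all tested genes is therefore not read as a trait of the members. Nothing is read either from the other 35 members, which were lower than in Ad-GFP-PE.

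The effects of both manipulations under PE were set side by side, from tables that share no library. The choice favours a lower level than the control in both. Of the 55 members higher in siKlf2-PE, 42 were lower in Ad-Klf2-PE, a share of 76.4%, and of all 81 members 75.3% were lower in Ad-Klf2-PE. Of the 19 lower in siKlf2-PE, 14 were lower in Ad-Klf2-PE, a share of 73.7%. The call in Ad-Klf2-PE was thus spread much alike over members higher and members lower after knockdown, and the 42 members do not stand out from the separate counts of both comparisons. These 42 are 68.9% of the 61 lower in Ad-Klf2-PE. Over the 15944 genes tested in both tables, 44.2% of those higher in siKlf2-PE and 32.4% of those lower in it were lower in Ad-Klf2-PE. As shares of all members, 51.9% were higher after knockdown and lower with added Klf2, 17.3% lower in both, 13.6% higher in both (11 members) and 1.23% the reverse (1 member), against 12.9%, 10.004%, 9.09% and 11.4% of all genes. The other 13 members were not called in at least 1 comparison. The sizes of the 2 effects had a Spearman correlation of -0.07 across the members (n = 81), and of -0.09 over 15944 genes.

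**Figure D4:**
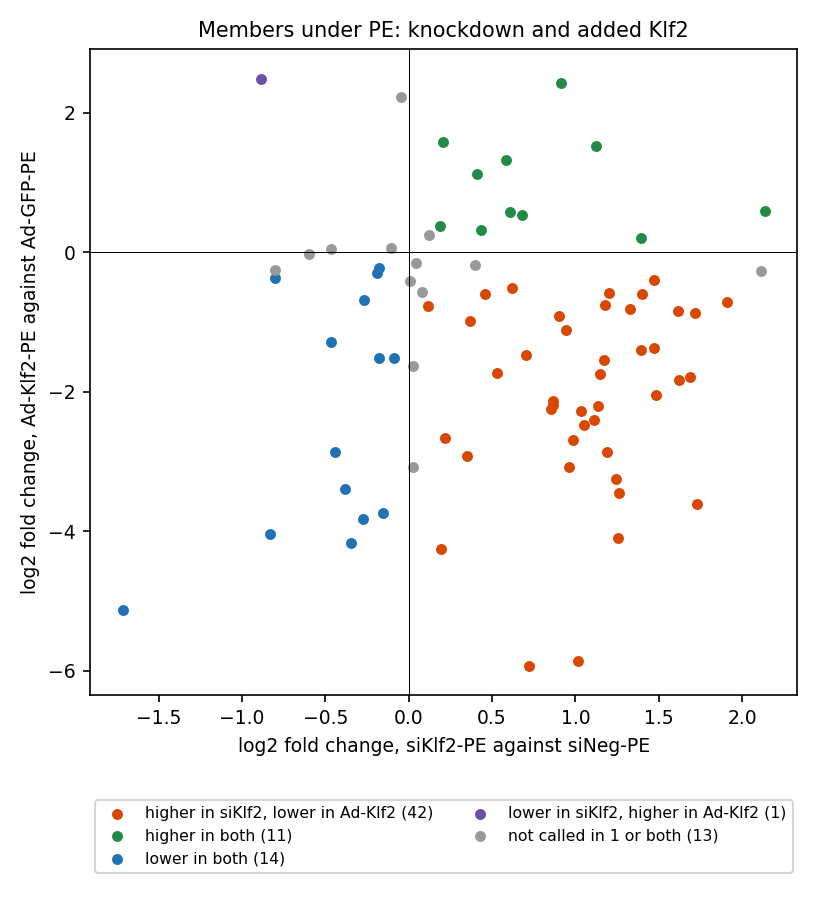
Each point is 1 of the 81 members. The x axis gives the log2 difference of siKlf2-PE from siNeg-PE and the y axis that of Ad-Klf2-PE from Ad-GFP-PE, coloured by the calls in both comparisons. The lower right quadrant, higher after knockdown and lower with added Klf2, holds 42 members called in both, 76.4% of those higher after knockdown, where 75.3% of all members are lower with added Klf2.

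The 42 members that were higher after knockdown and lower with added Klf2 under PE had a median log2 difference of 1.12 in siKlf2-PE and of -1.80 in Ad-Klf2-PE. Without PE, 40 of them were higher in siKlf2 and 1 lower, with a median of 1.37. In Ad-Klf2 without PE, 14 were higher and 14 lower, with a median of -0.07, and PE raised 19 and lowered 19 of them in Ad-Klf2, a comparison that shares the Ad-Klf2-PE libraries with the calls that define the set. Among all tested genes lower in Ad-Klf2-PE, 6.72% were higher and 32.9% lower in Ad-Klf2 without PE. PE raised 4.3% of the same genes in Ad-Klf2 and lowered 74.4%. A high Ad-GFP-PE level helped choose the members, so the gap to these shares is not read as a trait of the members. The 14 members lower in both included 4 higher and 4 lower in siKlf2 without PE. Among all tested genes, 78.7% of those higher in siKlf2-PE were higher in siKlf2 without PE, against 3.24% of those lower in siKlf2-PE. The call in siKlf2-PE made these sets, so their difference without PE is not read as a trait of the members. Of the 11 members higher in both, 9 were also higher in Ad-Klf2 without PE. So were 11 of all 13 members higher in Ad-Klf2-PE, a share of 84.6%, and 45.4% of all tested genes higher in Ad-Klf2-PE. The choice favours a low Ad-GFP level, so this is not read as a trait of the members higher in both.

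Whether the PE response itself differed between arms was tested with the interaction of PE and Klf2 level. Members were chosen for a large response in the controls, which favours a smaller one in the other arm. After knockdown, 41 members had a smaller PE response in siKlf2 than in siNeg and 7 a larger one, against 7.35% and 7.08% of all tested genes. At a difference of at least 1.5-fold the counts were 20 and 4, against 1.35% and 1.11%. The median log2 difference was -0.27. With added Klf2, 67 members had a smaller PE response in Ad-Klf2 and 3 a larger one, against 24% and 25.1% of all tested genes. At a difference of at least 1.5-fold the counts were 60 and 3, against 15.9% and 19.2%, and the median was -1.58.

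The 2 members with the highest mean CPM, which is not corrected for gene length, both fell with PE in Ad-Klf2, although 6 of the 11 members at 500 CPM or more rose there. The highest rose from 1753 ± 24.5 to 7796 ± 178 CPM in siNeg and from 5524 ± 95.3 to 17788 ± 564 CPM in siKlf2 (SD, n = 2). In Ad-GFP it went from 2587 ± 127 to 11208 ± 270 CPM, whereas in Ad-Klf2 it fell from 3987 ± 236 to 1533 ± 193 CPM (SD, n = 3). Its log2 fold change with PE was 1.69 in siKlf2 (SE 0.038, edgeR adjusted p = 1.24e-10) and -1.38 in Ad-Klf2 (SE 0.069, edgeR adjusted p = 3.25e-12). This gene was above Ad-GFP in Ad-Klf2 without PE, by 0.62 on the log2 scale, and below Ad-GFP-PE with PE, with a difference of -2.87.

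The second member by CPM went from 1201 ± 48.2 to 6259 ± 397 CPM in siNeg and from 4414 ± 108 to 12808 ± 356 CPM in siKlf2 (SD, n = 2). It went from 3617 ± 275 to 14377 ± 131 CPM in Ad-GFP and from 3444 ± 52 to 2986 ± 217 CPM in Ad-Klf2 (SD, n = 3). Its log2 fold change with PE was 1.54 in siKlf2 (SE 0.049, edgeR adjusted p = 8.34e-10) and -0.21 in Ad-Klf2 (SE 0.053, edgeR adjusted p = 0.00235). Without PE its log2 difference between Ad-Klf2 and Ad-GFP was -0.07 (SE 0.053), which was not called. The Ad-GFP libraries helped choose the members, so no p is given.

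A set of 4 IDs was followed through every library. They were the 2 members with the largest rise and the 2 with the largest fall with PE in Ad-Klf2. They were chosen after their values were seen, so their fold changes in the overexpression table are descriptions. The knockdown libraries took no part in picking them from the members. The siNeg-PE libraries helped choose the members, so differences from siNeg-PE are given with no p.

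ENSRNOG00000000129 was 3.59 and 3.37 CPM in the siNeg libraries, 24.9 and 24.0 CPM in siNeg-PE, 36.4 and 34.1 CPM in siKlf2, and 109 and 106 CPM in siKlf2-PE. No groups overlapped, and siKlf2 without PE lay above siNeg-PE. It was 1.87, 2.42 and 1.42 CPM in Ad-GFP, 25.6, 27.2 and 27.3 CPM in Ad-GFP-PE, 2.13, 1.51 and 1.65 CPM in Ad-Klf2, and 39.5, 41.9 and 39.6 CPM in Ad-Klf2-PE. The groups without PE overlapped, and Ad-Klf2-PE was the highest group. The log2 fold change with PE was 1.61 in siKlf2 (SE 0.043, edgeR adjusted p = 2.41e-10) and 4.51 in Ad-Klf2 (SE 0.164). Against siNeg-PE, siKlf2-PE was 2.14 higher on the log2 scale (SE 0.043). Against Ad-GFP-PE, Ad-Klf2-PE was 0.59 higher (SE 0.132). This gene was raised by PE in all 4 arms and was among the 11 members higher under PE in both KLF2 arms.

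ENSRNOG00000002511 was 2.70 and 2.64 CPM in siNeg, 10.04 and 12.996 CPM in siNeg-PE, 7.79 and 8.46 CPM in siKlf2, and 26.4 and 24.1 CPM in siKlf2-PE. It was 3.71, 1.59 and 2.63 CPM in Ad-GFP, 39.3, 28.6 and 31.2 CPM in Ad-GFP-PE, 0.98, 0.89 and 0.49 CPM in Ad-Klf2, and 7.47, 6.36 and 7.67 CPM in Ad-Klf2-PE. Ad-Klf2 libraries were lower than Ad-GFP libraries with and without PE, with no overlap, yet PE raised the gene in each arm. The log2 fold change with PE was 1.64 in siKlf2 (SE 0.102, edgeR adjusted p = 1.58e-07) and 3.15 in Ad-Klf2 (SE 0.276). Its PE response differed between Ad-Klf2 and Ad-GFP by -0.49 on the log2 scale (SE 0.367), and by -0.83 without Ad-GFP replicate 1. Its lower level with PE in Ad-Klf2, by -2.20 (SE 0.223), stood beside a lower level without PE, by -1.70 (SE 0.285).

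ENSRNOG00000003251 was 20.9 and 21.1 CPM in siNeg, 66.9 and 62.7 CPM in siNeg-PE, 53.4 and 53.4 CPM in siKlf2, and 133 and 129 CPM in siKlf2-PE. It was 12.96, 11.9 and 11.1 CPM in Ad-GFP, 38.8, 36.3 and 41.6 CPM in Ad-GFP-PE, 10.1, 9.72 and 7.93 CPM in Ad-Klf2, and 0.26, 1.07 and 0.86 CPM in Ad-Klf2-PE. All 3 Ad-Klf2-PE libraries lay far below every other library, on counts of 18, 34 and 50. The log2 fold change with PE was 1.29 in siKlf2 (SE 0.036, edgeR adjusted p = 2.91e-10) and -3.79 in Ad-Klf2 (SE 0.262). Under PE it was 1.01 higher in siKlf2-PE than in siNeg-PE on the log2 scale (SE 0.036). Its log2 difference of Ad-Klf2-PE from Ad-GFP-PE was -5.86 (SE 0.263).

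ENSRNOG00000018598, the third member by mean CPM, was 542 and 561 CPM in siNeg, 4136 and 4288 CPM in siNeg-PE, 1759 and 1827 CPM in siKlf2, and 6938 and 6951 CPM in siKlf2-PE. It was 875, 787 and 915 CPM in Ad-GFP, 4218, 4369 and 4554 CPM in Ad-GFP-PE, 464, 433 and 475 CPM in Ad-Klf2, and 73.8, 62.7 and 79.2 CPM in Ad-Klf2-PE. No groups of a table overlapped, and Ad-Klf2-PE was the lowest group of its table, whereas siKlf2-PE was the highest of its own. The log2 fold change with PE was 1.95 in siKlf2 (SE 0.038, edgeR adjusted p = 5.24e-11) and -2.67 in Ad-Klf2 (SE 0.075). Under PE it was 0.72 higher in siKlf2-PE than in siNeg-PE on the log2 scale (SE 0.036). Its log2 difference of Ad-Klf2-PE from Ad-GFP-PE was -5.93 (SE 0.086), the lowest of the 81 members.

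**Figure D5:**
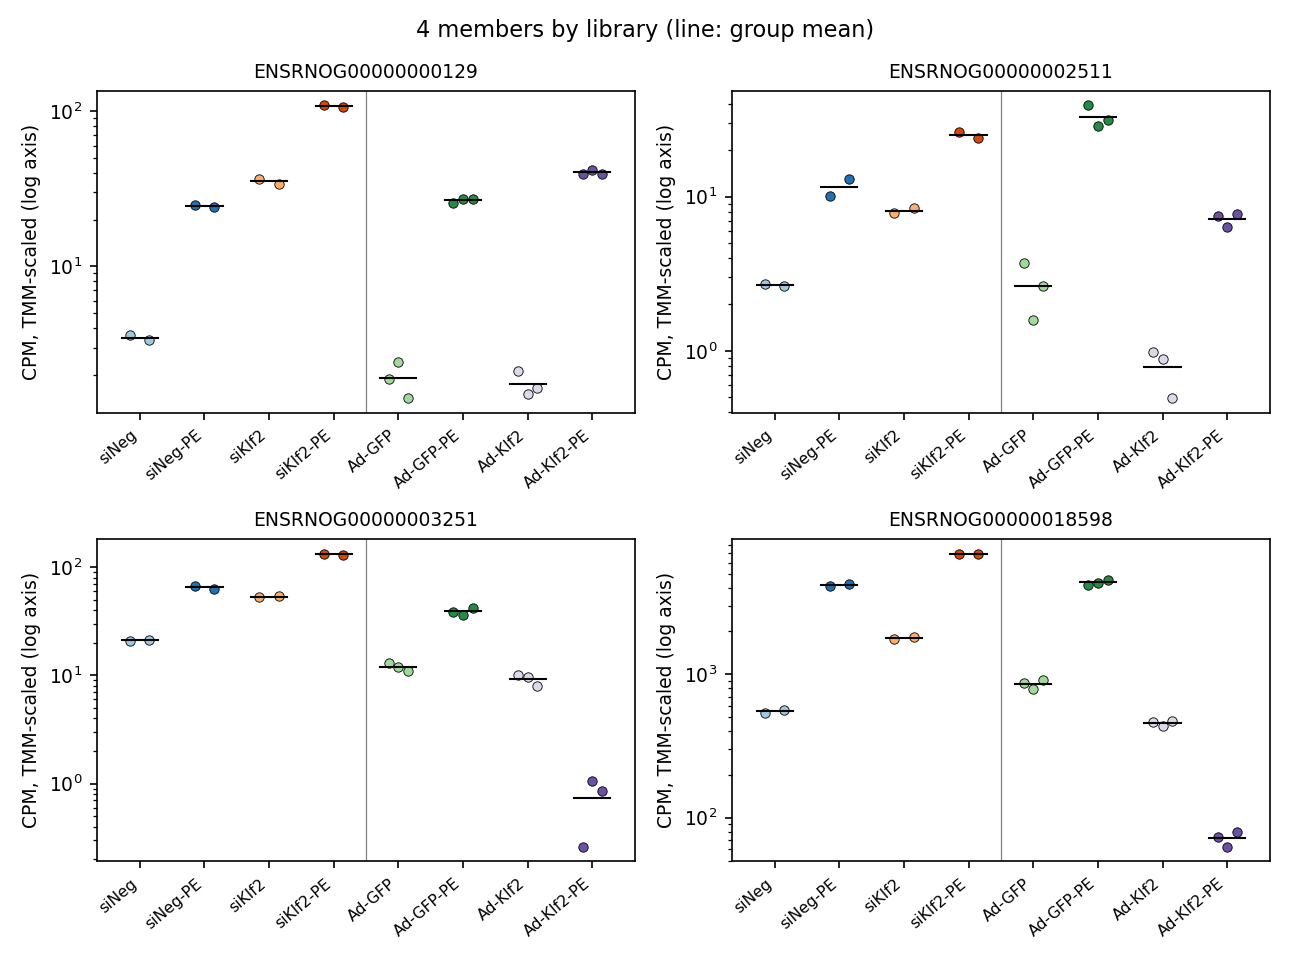
TMM-scaled CPM on log axes for 4 members in each of the 20 libraries (points), with the mean of each group as a line and a vertical line between the knockdown and overexpression tables. The upper pair rises with PE in Ad-Klf2, and the lower pair falls, while all 4 rise with PE in siNeg, siKlf2 and Ad-GFP.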

How the data were processed

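The deposited files used were 2 tables of raw counts per Ensembl gene ID. The authors' steps were trimming (Trim Galore), alignment (STAR) and counting (featureCounts) on the build mRatBN7.2, per the submitters' processing notes. Versions and strand settings are not given in the sources used here. RNA input was 400 ng, per the labels' protocols. Counts of each table were fitted in edgeR 4.0.16 (R 4.3.3) after filterByExpr (minimum count 10, minimum total 15), which left 18173 and 16153 genes, with TMM factors and 1 quasi-likelihood fit over 4 groups. P-values were two-sided. The biological coefficient of variation was 0.049 and 0.132. The procedure was tested on simulated data.

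The members and the lists were chosen with earlier results of these data known. The rule for named genes needed symbols for most of its parts, so at most 2 IDs that rose and 2 that fell are printed. The rule's lists, 20 in all, and the peak list were not used here. Alternatives were RLE factors, library totals, DESeq2 1.42.0, no filter, fits of 2 groups, a replicate block, a fold minimum, other membership rules and leaving out each library. Added after the data were seen were the fit without Ad-GFP, membership by siNeg alone and positions by library totals. Summaries and figures used Python 3.11.15, pandas 2.3.3, numpy 2.4.6, scipy 1.17.1 and matplotlib 3.10.9.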

Additional observations from a re-analysis of the deposited data

Results flagged for a closer look

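Results below differed between arms in an interaction test of edgeR's quasi-likelihood fit. The controls chose the members for a large PE response, which favours a smaller response in the other arm, and the causes were not tested. The PE response was called smaller in siKlf2 than in siNeg for 41 members and larger for 7, against 7.35% and 7.08% of all tested genes. It was called smaller in Ad-Klf2 than in Ad-GFP for 67 members and larger for 3, against 24% and 25.1%.

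The followed IDs were picked for their PE response in Ad-Klf2, which enters the difference from Ad-GFP, so those differences are given with no p. The siNeg libraries helped choose the members for a large response, so the differences from siNeg are also given with no p. ENSRNOG00000000129 had a smaller PE response in siKlf2 than in siNeg, with a log2 difference of -1.20 (SE 0.066). Its PE response was larger in Ad-Klf2 than in Ad-GFP, with a log2 difference of 0.70 (SE 0.221). That difference from Ad-GFP was 0.47 without Ad-GFP replicate 2 and 0.59 without Ad-Klf2 replicate 2, and neither of these passed the threshold. For ENSRNOG00000003251 the PE response differed by -0.33 in siKlf2 (SE 0.051) and by -5.49 in Ad-Klf2 (SE 0.328). For ENSRNOG00000018598 the differences were -0.98 in siKlf2 (SE 0.051) and -5.02 in Ad-Klf2 (SE 0.104).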

How the results depend on the processing

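Of 339 alternative values of the counts, 312 stayed within 1.5 times the reported count. Without 1 library at a time, 79 to 83 members were chosen. A rule fold of 1.5 gave 248 members and one of 3 gave 24. Of those 24, all 24 rose with PE in siKlf2, and 17 rose and 5 fell in Ad-Klf2. Against siNeg, 19 were higher and 2 lower in siKlf2, while siKlf2-PE had 17 higher and 5 lower. Against Ad-GFP, 14 were higher and 4 lower in Ad-Klf2, while Ad-Klf2-PE had 4 higher and 17 lower. Their PE response was larger for 1 and smaller for 18 in siKlf2, and larger for 1 and smaller for 19 in Ad-Klf2. Library totals gave 21 members lower in siKlf2 without PE. A minimum fold of 1.5 gave 0 lower in siKlf2 without PE, 6 lower with PE, 8 higher in Ad-Klf2-PE, and PE responses larger for 4 and smaller for 20 in siKlf2. Membership by siNeg alone gave 13 lower in siKlf2 without PE and 7 larger PE responses in Ad-Klf2. Membership by TMM-scaled CPM, 103 members, gave 11 larger PE responses in siKlf2 and 6 in Ad-Klf2.

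The log2 difference of ENSRNOG00000000129 between Ad-Klf2 and Ad-GFP without PE, -0.11, ran from -0.26 to 0.15 over fits without 1 library. It was 0.15 without Ad-GFP replicate 2 and 0.03 without Ad-Klf2 replicate 2. The interaction of ENSRNOG00000002511 in siKlf2, -0.47, did not pass, but was called with library totals, no filter or DESeq2. In a fit that leaves a group with 1 library, that library is assumed to vary like the other groups.

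With a replicate block, 45 members rose and 30 fell with PE in Ad-Klf2, and 55 were higher and 18 lower in siKlf2-PE, and no count moved by over 1.5 times. Libraries that share a number did not deviate together across groups, with correlations of -0.146 to 0.237 over 12 pairs in the knockdown table and -0.108 to 0.0789 over 18 pairs in the overexpression table.

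The lowest count of a member was 357 among knockdown libraries and 8 among overexpression libraries.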
